A study of Mus musculus with 4 samples.

Results

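The genes described here encode the enzymes and transporters of glycolysis, the pentose phosphate pathway, lactate production and export, and the pyruvate dehydrogenase step. A fixed list of 38 gene symbols was matched to GENCODE vM21, all 38 were found among the 55421 gene identifiers of the deposited table, and all 38 passed the filter on low counts and were tested among 14427 genes. The comparison is between cells without the microRNA cluster miR-290-295 (KO, 2 libraries) and wild-type cells (WT, 2 libraries), all embryonic stem cells of mouse blastocyst origin and 129/Ola background. The labels name the E14 line for the KO cells. Both genotypes grew on gelatin in serum with LIF, the cytokine that keeps embryonic stem cells undifferentiated. The KO libraries are described as biological duplicates, with no word on whether 1 clone or several were used, and p-values therefore cover only the variation seen among these 4 libraries. Reads came from 3′ tags (QuantSeq), which lie near the poly(A) tail, so the number of reads per transcript does not grow with transcript length and isoforms that share a 3′ end, such as the pair of muscle and embryonic isoforms of Pkm, are counted together.

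Glycolysis converts glucose to pyruvate in the cytosol, and embryonic stem cells are known for running it at a high rate even where oxygen is plentiful, with much of the pyruvate reduced to lactate and exported. The pentose phosphate pathway branches off at glucose 6-phosphate. Its oxidative arm makes NADPH and its non-oxidative arm makes ribose 5-phosphate for nucleotides and returns sugars to glycolysis. An earlier study linked the miR-290 cluster to this metabolism through Mbd2, a methyl-CpG binding protein, and the transcription factor Myc, with Pkm and Ldha as the glycolytic genes at the end of that chain.

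Several microRNAs of the cluster share a seed, the bases 2 to 8 by which a microRNA pairs with its targets, and the sequences are shown because the matches among the 38 genes are read from them. The mature 3p strands listed by RefSeq (GRCm38.p6, plus strand of chromosome 7) are given with the seed in capitals, and miR-291a-3p, miR-294-3p and miR-295-3p share AAGUGCU. The cluster also encodes miR-292a-3p.
miR-290a-3p: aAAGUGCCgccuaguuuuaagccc
miR-291a-3p: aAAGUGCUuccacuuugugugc
miR-291b-3p: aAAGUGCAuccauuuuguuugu
miR-293-3p: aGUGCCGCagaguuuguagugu
miR-294-3p: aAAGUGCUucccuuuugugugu
miR-295-3p: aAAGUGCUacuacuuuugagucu

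The seed pairs with the DNA word AGCACTT in a transcript. Shifted by 1 base, with an A after the seed match, the word is GCACTTA, and a site with both ends reads AGCACTTA. In the longest annotated 3′ UTR, 8 of 38 members held at least 1 of the 7-base words (21.1%), against 21.8% of the 12495 tested genes with a 3′ UTR. The 8-base word was found in 1 member, Rpia, which encodes ribose 5-phosphate isomerase (2.63% of members, 3.58% of tested genes). GGCACTT, which pairs with the seed of miR-290a-3p, was not counted among these words. It was found in 2 members, Gpi1 and Slc16a1 (5.26% of members, 10.2% of tested genes). TGCACTT, which pairs with the seed of miR-291b-3p, was not counted either, and it stands in Aldoc, Pdk1 and Pfkfb3. For 4 members that the results below turn on, 1 site with a counted word is shown. These sites are given in the sense of the transcript, with the matched bases in capitals, which in Slc16a1 include GGCACTT. A further GGCACTT of Slc16a1, 655 bases after the stop codon, is not shown. Those shown lie at chr6:70765842-70765871 on the minus strand (Rpia), chr7:46855148-46855176 on the plus strand (Ldha), chr2:71901879-71901907 on the plus strand (Pdk1) and chr3:104657958-104657987 on the plus strand (Slc16a1), all in GRCm38.
Rpia: ctgagatgtgaAGCACTTActttttgttgt
Ldha: ccccgtgtcctAGCACTTcactgtccagg
Pdk1: ttcagtgtattGCACTTActagctttcaa
Slc16a1: gaagcctgtgtGGCACTTAgcagaggcctt

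As a check of the labels, the 7 hairpin rows of the deleted cluster on its own strand summed to 0 counts in each KO library and to 88 and 39 counts in WT libraries 1 and 2. The libraries held between 9925557 and 12726123 counts, and the 38 members together took 0.637% and 0.569% of counts in KO libraries 1 and 2 and 0.625% and 0.74% in WT libraries 1 and 2. Member levels are given as counts per 1000000 of the library total (CPM), and 3 counts correspond to between 0.236 and 0.302 CPM. Markers of embryonic stem cells were present in every library, with 1 of 10 higher (Fgf4, 0.80) and 2 lower (Klf4, -1.59, and Utf1, -0.91). The summed level of 9 primitive endoderm markers was 26.3 and 24.4 CPM in KO and 168 and 183 CPM in WT, with 6 of 9 lower. The 5 fibroblast or feeder markers summed to 10.2 and 20.7 CPM in KO and 28.9 and 51.9 CPM in WT, with Col3a1 and Postn at 0 in every library and both tested ones, Thy1 and Col1a1, lower. In the other direction, 5 trophoblast markers summed to 393 and 241 CPM in KO and 94.5 and 102 CPM in WT (1 higher, Tfap2c), of which Tfap2c alone made up 379 and 230 CPM in KO and 89.7 and 88.1 CPM in WT. The 4 neural markers summed to 89.6 and 64.7 CPM in KO and 33.1 and 53.3 CPM in WT (1 higher, Pax6). The part of these other cell types in the values below was not tested, and in bulk RNA fewer cells of a type and less RNA per cell cannot be told apart.

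KO was compared with WT to ask which of these genes differ when the cluster is absent. Of the 38, 4 were higher in KO: Rpia, Pdk3, Pgd and Tigar. The genes Pgam1, Slc16a1 and Slc2a3, which made up the 3 lower ones, act along the route from glucose uptake to lactate export. The 4 higher ones encode a pyruvate dehydrogenase kinase (Pdk3), 1 of the 3 enzymes of the oxidative arm of the pentose phosphate pathway (Pgd), 1 of the 4 of its non-oxidative arm (Rpia) and a phosphatase that lowers glycolytic flux (Tigar). The threshold was a Benjamini-Hochberg adjusted p of 0.05 in edgeR's quasi-likelihood test over all 14427 genes. By that rule 18.4% of members were called, against 12.4% of all tested genes. In the higher direction the shares were 10.5% of members and 7.42% of all genes, and in the lower direction 7.89% and 4.96%. The median log2 fold change (KO over WT) was 0.033 over the members and -0.0061 over all genes, and the median absolute log2 fold change was 0.33 over the members and 0.37 over all genes. The KO and WT libraries did not overlap for 18 members (47.4%, against 58.0% of all tested genes).

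**Figure D1:**
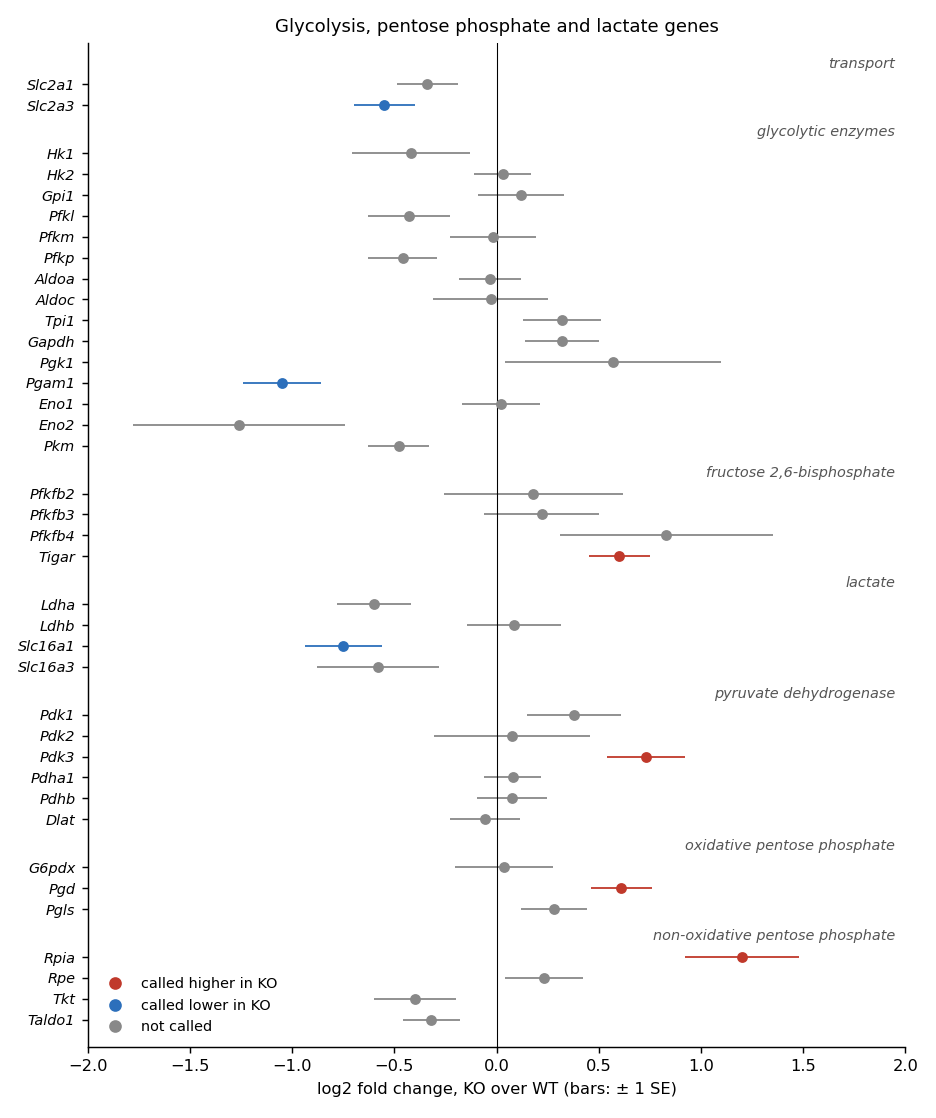
Log2 fold change (KO over WT, x axis) of each of the 38 members, grouped by role, with bars of ± 1 standard error from the fit on all 14427 genes. Red points were called higher (4), blue points lower (3), and grey points were not called (31); Rpia lies farthest to the right at 1.20 and Eno2, not called, farthest to the left at -1.26.

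Glucose enters these cells through facilitative transporters. Slc2a3 (GLUT3; ENSMUSG00000003153, chromosome 6, 122727809 to 122801640), the high-affinity transporter, measured 521 and 406 CPM in KO libraries 1 and 2 and 674 and 682 CPM in WT libraries 1 and 2. Both KO libraries lay below both WT libraries. Slc2a3 fell by 0.55 on the log2 scale (SE 0.15, edgeR adjusted p = 0.0469). Slc2a1 (GLUT1), the transporter of most growing cells, measured 387 and 337 CPM in KO and 415 and 501 CPM in WT. Its groups also did not overlap, and it was not called (log2 fold change -0.34, SE 0.15, adjusted p = 0.175). The call of Slc2a3 is close to the threshold: its adjusted p was 0.0673 with KO library 1 left out (-0.73), 0.416 with KO library 2 left out (-0.37), and 0.0509 over genes with a mean of at least 10 CPM.

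Of the 15 enzymes from hexokinase to pyruvate kinase, 1 was lower and 0 were higher. The lower one was Pgam1 (ENSMUSG00000011752, chromosome 19, 41911923 to 41918660), which encodes the phosphoglycerate mutase that turns 3-phosphoglycerate into 2-phosphoglycerate. Pgam1 measured 47.1 and 37.3 CPM in KO and 81.6 and 94.2 CPM in WT. Every KO value was thus far under the lower WT value. Pgam1 fell by 1.05 on the log2 scale (SE 0.19, edgeR adjusted p = 0.00851), to 0.482 times its WT level. With 1 library left out it lay between -1.22 and -0.89, and it missed the threshold only without KO library 2 (adjusted p = 0.0767).

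Hexokinase, which traps glucose as glucose 6-phosphate, came mostly from Hk2: 412 and 454 CPM in KO and 440 and 410 CPM in WT, with groups that overlap (log2 fold change 0.03, SE 0.14). Hk1 measured 30.7 and 33.1 CPM in KO and 28.3 and 57.7 CPM in WT, so that its spread within WT covered both KO values (-0.42, SE 0.29). Phosphofructokinase 1 commits sugar to glycolysis, and its 3 subunit genes were not called. The platelet-type gene Pfkp measured 202 and 237 CPM in KO and 262 and 342 CPM in WT, without overlap (-0.46, SE 0.17, adjusted p = 0.105). Pitrm1 lies on the opposite strand across the 3′ end of Pfkp and held 652 and 610 counts in KO and 977 and 992 in WT, and since the strand setting of the counting is not given, reads of the 2 genes cannot be told apart there. The liver-type gene Pfkl measured 119 and 93.8 CPM in KO and 118 and 170 CPM in WT (-0.43, SE 0.20), with overlap. The muscle-type gene Pfkm stayed between 23.6 and 29.2 CPM in all 4 libraries (-0.018, SE 0.21).

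The later steps of glycolysis pay back ATP and NADH. Gapdh, which encodes the dehydrogenase that makes that NADH, measured 65.5 and 54.8 CPM in KO and 48.8 and 47.4 CPM in WT. Its groups did not overlap, and it was not called (log2 fold change 0.32, SE 0.18, adjusted p = 0.276). Pkm, the pyruvate kinase gene, measured 310 and 288 CPM in KO and 374 and 463 CPM in WT. All KO values were again below the WT values, and the test missed the threshold (-0.48, SE 0.15, adjusted p = 0.0661). With 1 library left out the fold change of Pkm lay between -0.61 and -0.34. Pkm passed without a filter on low counts (-0.47, edgeR adjusted p = 0.0261), and in no other fit to all 4 libraries. With the replicate number as a block its edgeR adjusted p was 0.101 (-0.47). That setting called more genes across the whole table, 1590 higher and 1193 lower against 1071 and 715. The aldolase gene Aldoa (-0.032), the glucose 6-phosphate isomerase gene Gpi1 (0.12), the enolase gene Eno1 (0.02), the triose phosphate isomerase gene Tpi1 (0.32) and Aldoc (-0.03) were not called. Eno2, the neuronal enolase gene, had the lowest value of all 38 (-1.26, SE 0.52, adjusted p = 0.144) on 20 to 68 counts per library.

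Gapdh, Eno1 and Pgk1 need care as rows of this table. Pgk1, the phosphoglycerate kinase gene, held 41 and 21 counts in KO and 18 and 19 in WT, and Eno1 held 315 to 412 counts per library. The last 300 bases of Gapdh transcripts matched 235 annotated pseudogenes or named copies over at least 50 bases at 90% identity or more. Those copies held 268 and 177 counts in KO and 195 and 152 in WT, beside 833 and 645 in KO and 594 and 470 in WT on Gapdh itself. Ldha had 12 such copies with 1 count in all, Aldoa 6, Tpi1 and Gpi1 3 each, Eno1 1 and Pgk1 0. With the counts of the copies added to their parent genes, the same 4 members were called higher and the same 3 lower. How reads that fit several places were treated is not given in the sources used here, so the level of Gapdh, Eno1 and Pgk1 was not compared with that of other genes.

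**Figure D2:**
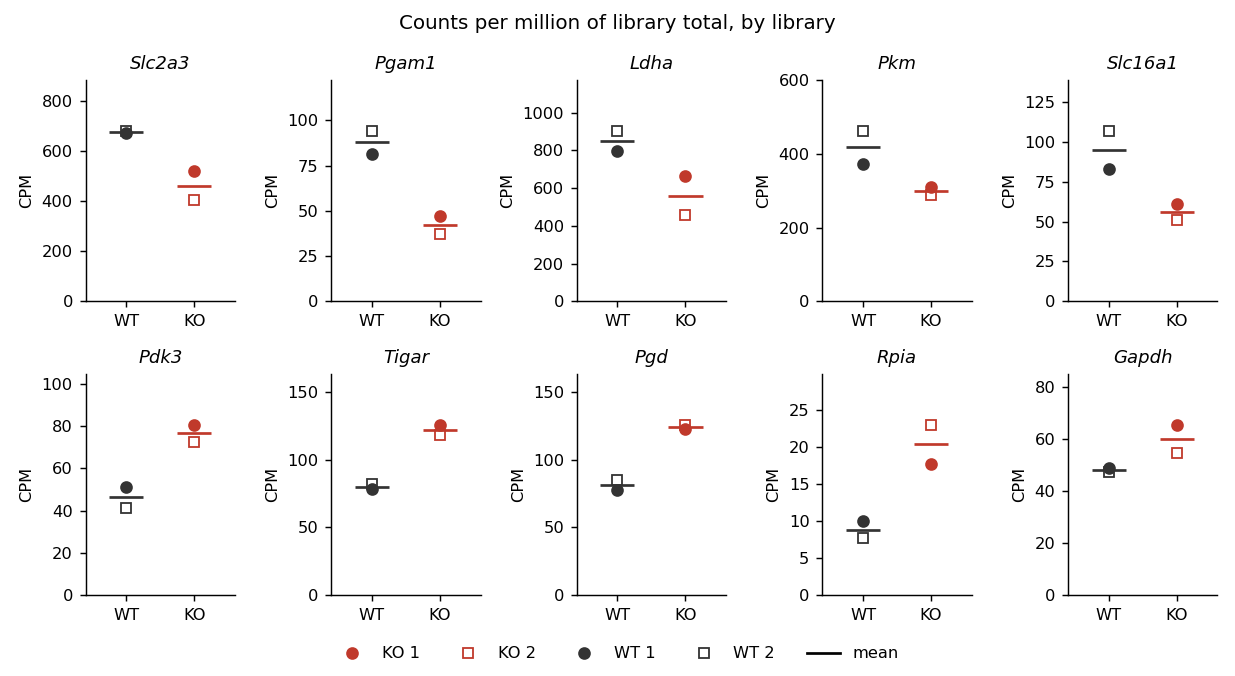
CPM of library total (y axis, from 0) for 10 members in the WT and KO libraries; filled circles are library 1, open squares library 2, and lines the mean of each genotype. In all 10 panels the KO points lie on one side of both WT points. They lie below for Slc2a3, Pgam1, Ldha, Pkm and Slc16a1 and above for Pdk3, Tigar, Pgd, Rpia and Gapdh. Ldha, Pkm and Gapdh were not called. All 10 belong to the 18 members without overlap (47.4% of members, against 58.0% of all tested genes).

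Fructose 2,6-bisphosphate is the strongest activator of phosphofructokinase 1, and the PFKFB enzymes make and degrade it. Tigar, named for its induction by p53 in human cells, encodes a phosphatase that degrades it and so can turn sugar toward the pentose phosphate pathway. Tigar (ENSMUSG00000038028, chromosome 6, 127085116 to 127109557) measured 126 and 118 CPM in KO and 78.4 and 81.8 CPM in WT, with little spread in either genotype. Tigar rose by 0.60 on the log2 scale (SE 0.15, edgeR adjusted p = 0.0336), or 1.52-fold. Its fold change stayed between 0.56 and 0.65 with 1 library left out, but the adjusted p was 0.265 without KO library 1 and 0.167 without KO library 2. Pfkfb3 measured 10.6 and 9.77 CPM in KO and 8.96 and 8.56 CPM in WT (0.22, SE 0.28). The genes Pfkfb2 (0.18, SE 0.44) and Pfkfb4 (0.83, SE 0.52) held 11 to 40 counts per library, and none of the 3 PFKFB genes was called.

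Lactate dehydrogenase reduces pyruvate to lactate, and monocarboxylate transporters carry lactate out with a proton. Slc16a1 (MCT1; ENSMUSG00000032902, chromosome 3, 104638668 to 104658462) measured 61.4 and 51.2 CPM in KO and 82.8 and 107 CPM in WT. The KO values were all lower. Gm43581, on the same strand, overlaps Slc16a1 but not its 3′ end. That gene held 62 and 31 counts in KO and 74 and 163 in WT, beside 602 to 1058 on Slc16a1. Slc16a1 fell by 0.75 on the log2 scale (SE 0.19, edgeR adjusted p = 0.0318), to 0.596 times its WT level. The adjusted p was 0.0857 without KO library 1 (-0.88) and 0.256 without KO library 2 (-0.62). Slc16a3 (MCT4), the exporter of strongly glycolytic cells, measured 53.4 and 29 CPM in KO and 47.9 and 76.2 CPM in WT, with overlap (-0.58, SE 0.30, adjusted p = 0.24). Ldha, which encodes the subunit that favours lactate formation, measured 664 and 455 CPM in KO and 797 and 903 CPM in WT. Its groups did not overlap and its fold change was -0.60 (SE 0.18), just outside the threshold (adjusted p = 0.0611). The DESeq2 test called Ldha lower (-0.61, adjusted p = 0.0372), and so did edgeR in 3 other settings. These were a fit leaving out KO library 1 (-0.89, adjusted p = 0.0211), a fit leaving out WT library 1 (-0.67, adjusted p = 0.0258) and a fit with no filter (-0.60, adjusted p = 0.000687). Leaving out KO library 2 gave -0.35 for Ldha (adjusted p = 0.448). Ldhb, which encodes the heart-type subunit, measured 266 and 186 CPM in KO and 167 and 261 CPM in WT, and these ranges overlap (0.085, SE 0.23).

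Where paralogs serve the same step, the share of each within its set was computed per library, as a description without a test. Ldha took 71.4% and 70.9% of lactate dehydrogenase counts in KO and 82.6% and 77.6% in WT, and Ldhb the remainder. The KO shares of Ldha were thus lower than both WT shares. Other shares were apart too. Eno1 took 93.4% and 95.3% of enolase counts in KO and 92.2% and 82.2% in WT. Pfkm took 6.84% and 8.13% of phosphofructokinase 1 counts in KO and 6.7% and 4.86% in WT. With 2 against 2 libraries an exact permutation test cannot give a p below 0.333. Pfkfb4 took 15.9% and 13.6% of PFKFB counts in KO and 10.8% and 9.24% in WT, on few counts. Of the glucose transporter counts Slc2a3 took 57.4% and 54.6% in KO and 61.9% and 57.6% in WT, so that KO library 1 lay just under WT library 2. Hk2 held 93.1% and 93.2% of hexokinase counts in KO and 94% and 87.6% in WT, and Aldoa between 96.6% and 97.3% of aldolase counts in every library. The shares of 2 called members overlapped between genotypes. Pdk3 took 23.8% and 22.8% of the counts of the 3 kinase genes in KO and 26.7% and 14.2% in WT. Slc16a1 took 53.5% and 63.8% of the transporter counts it shares with Slc16a3 in KO and 63.3% and 58.3% in WT.

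**Figure D3:**
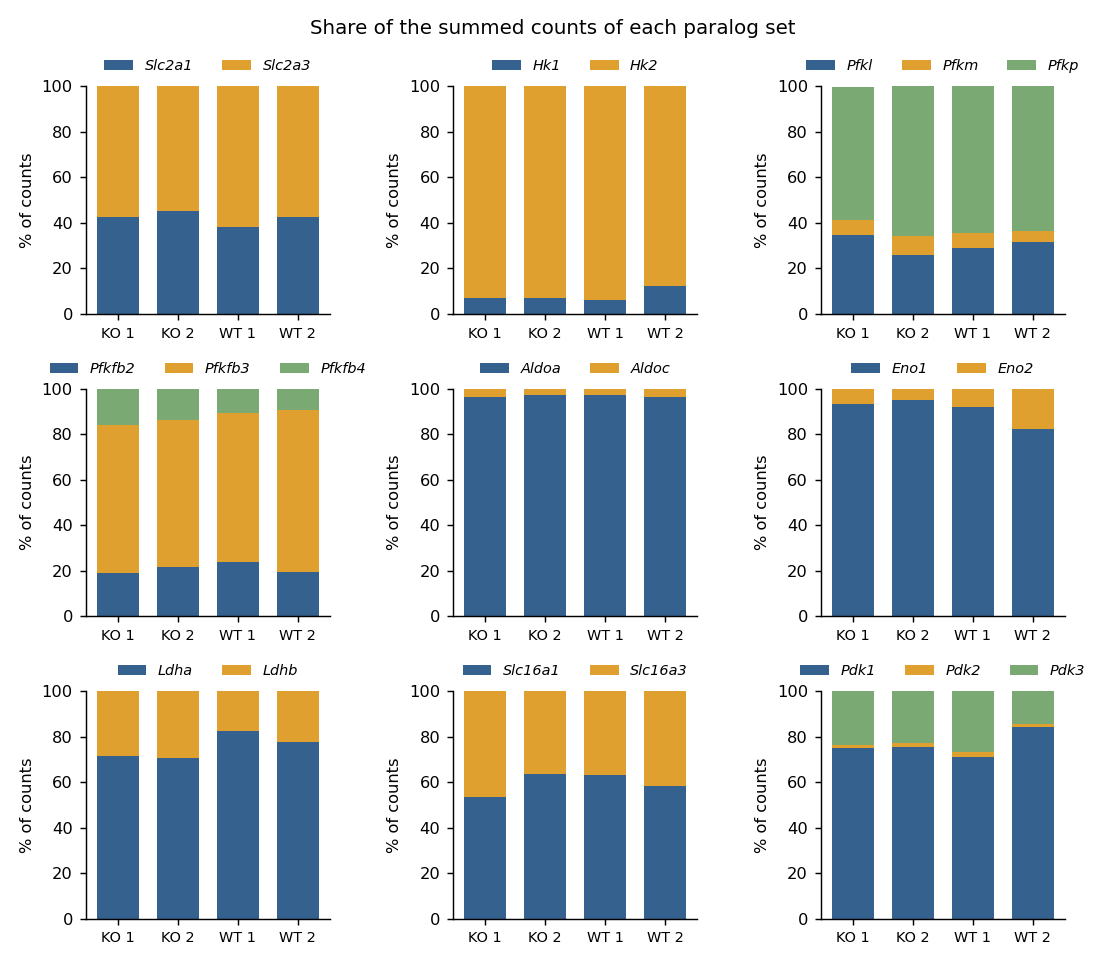
Stacked bars of the percentage of counts (y axis, 0 to 100) taken by each paralog within 9 sets, in KO libraries 1 and 2 and WT libraries 1 and 2. The Ldha part is lower in both KO libraries (71.4% and 70.9%) than in both WT libraries (82.6% and 77.6%), while Hk2 and Aldoa fill most of their bars in all 4. The parts of Slc2a3, Eno1, Pfkm and Pfkfb4 are also apart between genotypes.

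Pyruvate enters the citrate cycle through the pyruvate dehydrogenase complex, which pyruvate dehydrogenase kinases switch off by phosphorylation. Pdk3 (ENSMUSG00000035232, chromosome X, 93764607 to 93832201) measured 80.7 and 72.4 CPM in KO and 51.1 and 41.4 CPM in WT, so that both KO values were above both WT values. Pdk3 rose by 0.73 on the log2 scale (SE 0.19, edgeR adjusted p = 0.0352), or 1.65-fold. It missed the threshold when KO library 1 (0.65, adjusted p = 0.227), KO library 2 (0.81, adjusted p = 0.11) or WT library 2 (0.56, adjusted p = 0.0512) was left out. Pdk1, the kinase most often tied to hypoxia, measured 255 and 239 CPM in KO and 136 and 245 CPM in WT. WT library 2 lay between the KO libraries and WT library 1 stood below them, and Pdk1 was not called (0.38, SE 0.23). Without WT library 2 it was called higher (0.84, edgeR adjusted p = 0.0019), and without WT library 1 its fold change was 0.028. Pdk2 held 45 to 62 counts per library (0.075, SE 0.38). The genes of the complex itself, Pdha1 (0.079, SE 0.14) and Pdhb (0.076, SE 0.17) for its first component and Dlat (-0.058, SE 0.17) for its second, had fold changes within 1 SE of 0.

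In the oxidative arm of the pentose phosphate pathway, Pgd (ENSMUSG00000028961, chromosome 4, 149149991 to 149166771) encodes the dehydrogenase that releases ribulose 5-phosphate and makes the second NADPH. Pgd measured 123 and 126 CPM in KO and 77.9 and 85.4 CPM in WT. The 2 genotypes were well apart, and Pgd rose by 0.61 on the log2 scale (SE 0.15, edgeR adjusted p = 0.0326), or 1.52-fold. It kept 0.56 to 0.65 with 1 library left out, with an adjusted p of 0.192 without KO library 1 and 0.223 without KO library 2. G6pdx, whose product is the entry enzyme of this arm, measured 29.9 and 23.5 CPM in KO and 21.5 and 30.9 CPM in WT, with overlap (0.036, SE 0.24). Pgls, the lactonase gene between them, measured 95.8 and 98.5 CPM in KO and 75.6 and 85 CPM in WT, without overlap, and was not called (0.28, SE 0.16, adjusted p = 0.287). Other genes span the 3′ ends of these members as well. Ikbkg, opposite G6pdx, held 132 and 152 counts in KO and 119 and 98 in WT, beside 381 and 277 in KO and 262 and 307 in WT on G6pdx itself. Fam129c, on the same strand as Pgls, held 36 to 44 counts per library, beside 844 to 1219 on Pgls.

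In the non-oxidative arm, Rpia (ENSMUSG00000053604, chromosome 6, 70765720 to 70792232), the isomerase that makes ribose 5-phosphate, had the highest fold change of all 38 members. Rpia measured 17.7 and 23 CPM in KO and 10 and 7.66 CPM in WT, and both KO values were above both WT values. Rpia rose by 1.20 on the log2 scale (SE 0.28, edgeR adjusted p = 0.0245), or 2.29-fold, and lay between 1.00 and 1.43 with 1 library left out, missing the threshold without KO library 2 (adjusted p = 0.166). Rpia is also the member with AGCACTTA, which starts 694 bases after the stop codon in a 3′ UTR of 834 bases. It is not alone in holding an 8-base match to a seed of the cluster. Slc16a1 (-0.75) holds GGCACTTA, for miR-290a-3p, and Aldoc (-0.03) and Pdk1 (0.38) hold TGCACTTA, for miR-291b-3p. Rpe, the epimerase gene that works on the same substrate, was not called (0.23, SE 0.19), and its chromosome, 1, had a median of 0.27 over its tested genes. The WT libraries also differed there, with a median log2 WT library 1 over WT library 2 of -0.27. Rpe lay at 0.005 without WT library 1 and at 0.50 without WT library 2. Kansl1l lies opposite the 3′ end of Rpe and held 71 and 86 counts in KO and 36 and 25 in WT, beside 894 to 1287 on Rpe. Tkt, the transketolase gene, measured 163 and 230 CPM in KO and 220 and 303 CPM in WT, with overlap (-0.40, SE 0.20, adjusted p = 0.23). Taldo1, the transaldolase gene, lay at 269 and 276 CPM in KO and 341 and 337 CPM in WT, without overlap, and was not called (-0.32, SE 0.14, adjusted p = 0.163).

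Set beside the sites, the 8 members with AGCACTT or GCACTTA were Hk1 (-0.42), Pfkp (-0.46), Aldoc (-0.03), Ldha (-0.60), Slc16a1 (-0.75), Pdk1 (0.38), Rpia (1.20) and Rpe (0.23). Their median log2 fold change was -0.22, with 1 called higher and 1 lower. The median was 0.055 for the other 30 members, with 3 higher and 2 lower. Those 30 are not free of matches to the cluster, as they include Gpi1 (0.12) with GGCACTT and Pfkfb3 (0.22) with TGCACTT. Over all 2726 tested genes with such a word the median was 0.10, with 288 higher and 90 lower, beside 1071 higher and 715 lower among all 14427 tested genes. Among the 3 members called lower, Slc16a1 held a site, and Slc2a3 and Pgam1 had neither word in the longest 3′ UTR. With any annotated 3′ UTR in place of the longest, 9 members held a 7-base word, and with the shortest, 4.

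The rest of each pathway was read from fixed lists. Of 17 other tested genes of glycolysis and sugar transport, 0 were called in edgeR's test. Of 10 genes of pyruvate entry to mitochondria, 1 was higher, Mpc2, which encodes a subunit of the mitochondrial pyruvate carrier (1.08, SE 0.20, adjusted p = 0.0109), and 1 was lower, Pdp2, a phosphatase gene that reverses the kinases (-0.85, SE 0.18, adjusted p = 0.0185). Of 6 other pentose phosphate genes 1 was lower, Prps2, which encodes a synthetase that turns ribose 5-phosphate into phosphoribosyl pyrophosphate. Prps2 measured 7.54 and 7.39 CPM in KO and 57.5 and 45.9 CPM in WT and fell by 2.79 on the log2 scale (SE 0.23, adjusted p = 0.000253). Its paralog Prps1 measured 232 and 214 CPM in KO and 265 and 266 CPM in WT and was not called (-0.25, SE 0.14). Of 5 tested gluconeogenesis genes 1 was higher, Pck2, the mitochondrial phosphoenolpyruvate carboxykinase gene (1.51, SE 0.25, adjusted p = 0.00657). Of 18 citrate cycle genes 2 were higher, Cs (citrate synthase, 0.57) and Sdha (0.55), and 1 was lower, Sdhd (-1.08), and the last 2 encode subunits of succinate dehydrogenase.

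Of 20 tested regulators of these pathways 3 were higher and 1 lower. Mbd2 measured 34.8 and 30.3 CPM in KO and 16.7 and 18.1 CPM in WT and rose by 0.90 (SE 0.21, adjusted p = 0.0239). Myc measured 10.4 and 16.8 CPM in KO and 43.1 and 15.4 CPM in WT, so that 1 WT library lay among the KO values and the other far above, and it was not called (-1.12, SE 0.44, adjusted p = 0.13). Mycn, the N-Myc gene, rose by 1.15 (SE 0.21, adjusted p = 0.00931), from 104 and 70 CPM in WT to 205 and 182 CPM in KO. Nfe2l2, which encodes NRF2, an activator of pentose phosphate genes among others, rose by 0.84 (SE 0.15), and Lin28a, which encodes an RNA-binding protein, fell by 0.84 (SE 0.18). Hif1a (0.22) and Lin28b (-0.54) were not called. Of 19 other genes of the hypoxia response 2 were higher, Stc2 (2.15) and Ero1l (0.91), and 3 were lower, Plod2 (-1.70), P4ha2 (-1.36) and Ak4 (-0.53), and the list median was -0.022.

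Libraries of the same genotype differed in these genes in a patterned way. Lactate genes were all higher in KO library 1 than in KO library 2 and all higher in WT library 2 than in WT library 1 (4 of 4), and so were 9 of the 15 glycolytic enzymes. Over the 38 members 17 did both (44.7%), against 24.5% of all tested genes, while 0 of the 4 non-oxidative pentose phosphate genes did. This count was made after the values were seen, and the genes are not independent. On the log2 CPM scale with a prior count of 2, which narrows the gaps of genes with few counts, the widest gaps were those of Eno2 (log2 WT library 1 over WT library 2 of -1.17), Hk1 (-0.99) and Pdk1 (-0.81) in WT and of Slc16a3 (0.87) and Pgk1 (0.79) in KO. Txnip, which glucose induces and whose product restrains glucose uptake, measured 622 and 295 CPM in KO and 136 and 489 CPM in WT (0.57, SE 0.49), in the same order. The summed level of the 20 other hypoxia response genes was 1326 and 972 CPM in KO and 892 and 1088 CPM in WT. Of these sums, Ddit4 alone made up 347 and 167 CPM in KO and 60.4 and 158 CPM in WT. Not every gene of that list kept this order, as Kdm3a and Fam162a were higher in WT library 1 than in WT library 2. What sets these libraries apart was not tested.

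**Figure D4:**
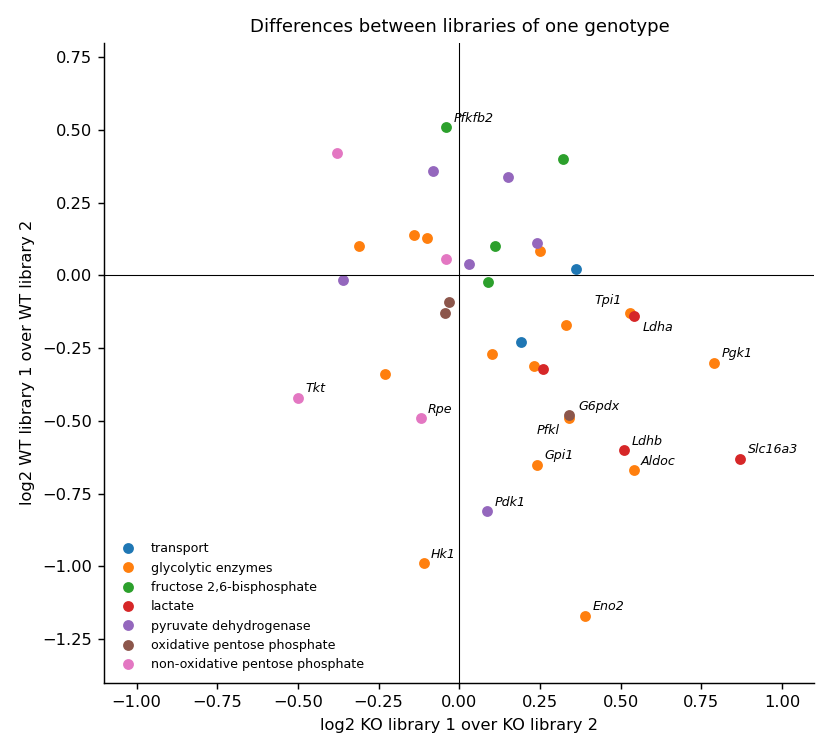
Each point is 1 of the 38 members, with the log2 ratio of KO library 1 to KO library 2 on the x axis and of WT library 1 to WT library 2 on the y axis, coloured by role. The lower right part holds 17 members, among them all 4 lactate genes and 9 of 15 glycolytic enzymes, and the non-oxidative pentose phosphate genes lie to the left of 0.

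The 7 calls were also followed with each library left out, where a lone library is assumed to vary like the other pair. All 7 kept their direction in each of the 4 fits. Their KO and WT libraries did not overlap, so leaving 1 out could hardly reverse it, and this adds no support. Without KO library 2, 0 of the 38 members were called by edgeR, and without KO library 1, Rpia was called higher and Pgam1 and Ldha lower. Without WT library 1 all 7 were called, and without WT library 2 all but Pdk3 (adjusted p = 0.0512), with Pdk1 called higher as well. Without WT library 1 the lower calls also included Pkm, Ldha, Pfkp, Pfkl, Hk1, Slc16a3, Eno2 and Tkt. Over the whole table, calls in both directions were fewer without either KO library and more without either WT library. The number of members called in these fits is therefore not read as a trait of the members.

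**Figure D5:**
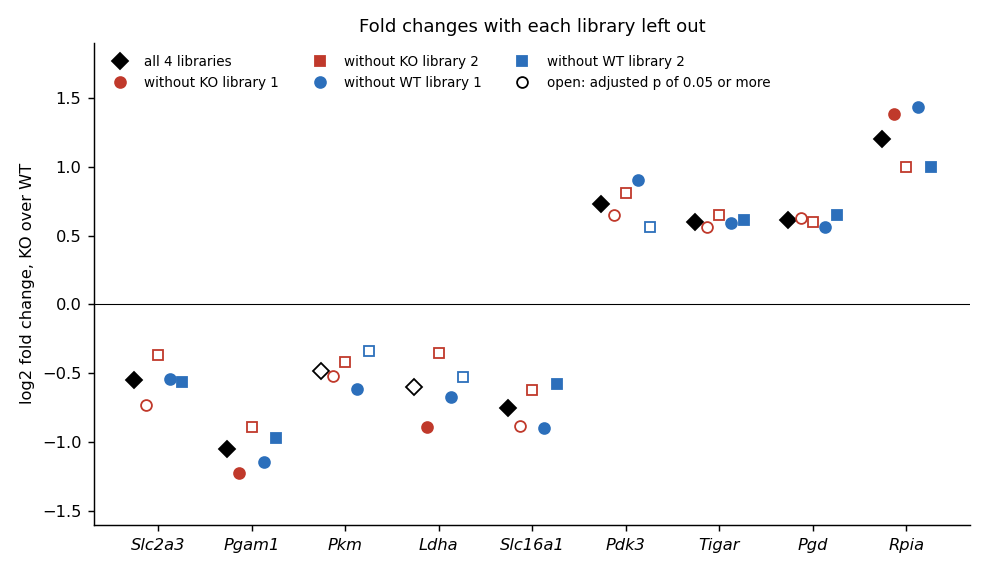
Log2 fold change (KO over WT, y axis) of the 7 called members and of Ldha and Pkm with all 4 libraries (black diamonds) and with each library left out; filled symbols had an adjusted p below 0.05 in edgeR and open ones did not. Slc2a3, Pgam1, Pkm, Ldha and Slc16a1 stay below 0 and Pdk3, Tigar, Pgd and Rpia above it, and the red squares, from the fits without KO library 2, are open for all 9; the diamonds of Ldha and Pkm are open too.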

How the data were processed

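Trizol RNA went into QuantSeq FWD libraries of 3′ tags, per the labels' protocols. The authors deposited raw counts for each Ensembl identifier in 1 table. The submitters' processing notes list Trim Galore and the genome GRCm38. Which aligner and counter were used, with what strand setting and annotation, is not given in the sources used here. Genes were named with GENCODE vM21 (GRCm38), which held 55240 of 55421 identifiers. Aldoa names 2 identifiers, and the one with counts was used. The libraries did not repeat each other (chi-square over its degrees of freedom was 12.5 between the KO and 21.1 between the WT libraries).

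Groups came from sample titles. All genes were fitted with edgeR 4.0.16 (two-sided quasi-likelihood test, TMM factors of 0.987 to 1.01, filterByExpr, Benjamini-Hochberg adjustment, threshold 0.05) in R 4.3.3. The SE was taken as the size of the log2 fold change over the root of the F statistic. CPM use library totals. The biological coefficient of variation was 0.198. The count test was tested on simulated data. Copies of 3′ ends were searched with blastn 2.17.0, and seed words in the longest 3′ UTR of GENCODE transcripts. No intervals of counting error are given, because duplicate reads cannot be recognised in a table of counts.

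Alternatives were library totals alone, DESeq2 1.42.0 (its size factors in edgeR, and its own test), no filter, a mean of at least 10 CPM, the replicate number as a block, each library left out, chromosome medians removed, and counts of named copies added. Adding counts of copies found by sequence was chosen after seeing the data. The members and lists were chosen with earlier results of these data known. Values per library were given for each called member and for a fixed set of rate-limiting or well-known members. For the other lists, up to 4 called genes each and fixed regulators were given by fold change, and only some of them per library. Pgls and Taldo1 were outside that fixed set and were also given per library. Prps1, Eno2 and Ak4 were named after their values were seen.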

Additional observations from a re-analysis of the deposited data

How the results depend on the processing

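The 2 scalings other than TMM kept the same 4 higher and 3 lower members. Over genes with a mean of at least 10 CPM, 636 genes were higher and 391 lower, and the members' median log2 fold change was -0.021 and the fold change of Eno1 -0.0025. Without a filter 1590 genes were higher and 1193 lower, with 6 members lower. Ldha stayed at -0.60 there, while its edgeR adjusted p went from 0.0611 to 0.000687. The replicate number as a block gave 638 higher and 370 lower genes, 0 higher members and 1 lower, Pgam1. The numbers share no stated origin, and the differences between libraries 1 and 2 of KO and WT had a Pearson correlation of -0.07 across all tested genes, so the pairing is not used. With 1 library left out, the counts ranged from 556 to 1477 higher genes, 285 to 1011 lower genes, 0 to 4 higher members and 0 to 11 lower members, and the median from -0.000097 to 0.074. With chromosome medians removed the members' median was -0.0037. The called members kept their direction there, with Tigar at 0.53 in place of 0.60. Some members that were not called changed sign, among them Rpe (0.23 to -0.035), Pfkfb2 (0.18 to -0.092) and Pdha1 (0.079 to -0.0075). Members that were not called changed sign with 1 library left out: Hk1 (-0.84 to 0.15), Hk2 (-0.041 to 0.10), Gpi1 (-0.17 to 0.48), Pfkm (-0.18 to 0.14), Pfkfb2 (-0.064 to 0.48), Aldoa (-0.18 to 0.13), Aldoc (-0.33 to 0.34), Eno1 (-0.046 to 0.084), Ldhb (-0.19 to 0.42), Pdk2 (-0.11 to 0.25), Pdhb (-0.10 to 0.27), Dlat (-0.18 to 0.063) and G6pdx (-0.19 to 0.29). With 2 libraries per genotype, a member that was not called is not shown to be unchanged. Members with few counts such as Pgk1, Eno2 and Pfkfb4 had SEs of 0.52 to 0.53. Changes well beyond the SE also went uncalled in edgeR, as for Eno2 (-1.26, SE 0.52, adjusted p = 0.144). The same held for Ldha, with many counts (-0.60, SE 0.18, adjusted p = 0.0611). The causes of these shifts were not tested.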

Other observations

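The 300-base windows around the start sites in RefSeq (GRCm38.p6, 250 bases before to 50 after) covered 37 of 38 members in 54 windows. CACGTG, the E-box word bound by MYC among other factors, was in 11.1% of member windows, 9.97% of 13125 windows of tested genes and 7.15% of all 32851 windows. ACGTG or GCGTG, the core of the hypoxia response element, searched on both strands and overlapping the E-box word, was in 75.9% of member windows, 61.8% of windows of tested genes and 43.8% of all windows, with a median GC content of 61% in members and 60.7% in tested genes. These are counts of letters in a window, given without a test.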
